A study of Mus musculus with 2 samples.

Results

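B cells of mouse spleen were picked out here by the summed transcripts of Zbtb32, Bhlhe41, Anxa2 and S100a6, 4 genes high in B1 cells and in memory B cells. A unique molecular identifier (UMI) marks 1 captured transcript. A barcode was taken as 1 of these cells, called gated B cells below, if it passed 8 limits. It held at least 1000 UMIs, at most 10% of them mitochondrial, at least 3 UMIs of the B cell receptor and surface genes Cd79a, Cd79b and Ms4a1, and none of Cd3d, Cd3e and Cd3g. It also held at least 3 UMIs over the 4 gate genes, none of Fcer2a, at most 1 over the marginal zone genes Myof, S1pr3, Fcrl5, Tm6sf1 and Cd9, and fewer than 3 of Jchain. Gated B cells numbered 56, of 13693 barcodes that passed the B cell limits and 28962 barcodes in all. They were set against 12527 B cells with none of the 4 gate genes, called comparison B cells, which were not held to the last 3 limits.

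Transcript 5′ ends of thawed spleen cells were counted by droplet single-cell sequencing in 2 libraries, 1 per group. The ALLO library came from wild-type C57BL/6 recipients grafted with tail skin at weeks 0 and 5. Donors were of the strain C57BL/6-Tg(HLAA2.1)1Enge/J, which expresses human HLA-A2.1 from a transgene. The SYN library came from wild-type C57BL/6 recipients that received wild-type C57BL/6 skin by the same procedure. Spleens of both groups were taken 4 weeks after the second graft, and recipients and donors of both share the C57BL/6 background, so the transgene is the stated difference. The labels used here give neither the age of the animals nor their number per library. Since ALLO and SYN are 1 library each, nothing could be checked against replicates or tested. Ranges in parentheses are 95% intervals that cover counting error only, and a comparison of ALLO with SYN is between 2 libraries and not between treatments.

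B1 cells are innate-like B cells that seed the body cavities and, in small numbers, the spleen. They make natural IgM with a restricted set of variable segments, and the B1a type carries the inhibitory receptor CD5. Memory B cells arise after antigen contact, often carry a switched antibody class, and are marked in mice by CD80 and CD73. Zbtb32 and Bhlhe41 encode transcriptional repressors, of which the second is needed for B1a cells in mice, while Anxa2 and S100a6 encode calcium-dependent proteins that bind membranes and the cytoskeleton and are used by many activated or memory cells.

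The variable segment pair Ighv11-2 and Igkv14-126 is the textbook B1a receptor against phosphatidylcholine in mice, and it was the 1 pair found in more than 1 gated B cell. The first 300 bases of each coding sequence, of 353, are shown because the repertoire result turns on them. Ighv11-2 lies on the minus strand at chr12:114048241-114048812 and Igkv14-126 on the plus strand at chr6:67896172-67896642 (mm10, GENCODE M21 transcripts). Each has 2 coding exons, and capitals mark the first, which holds 46 bases in Ighv11-2 and 55 in Igkv14-126 and encodes the start of the signal peptide.
Ighv11-2: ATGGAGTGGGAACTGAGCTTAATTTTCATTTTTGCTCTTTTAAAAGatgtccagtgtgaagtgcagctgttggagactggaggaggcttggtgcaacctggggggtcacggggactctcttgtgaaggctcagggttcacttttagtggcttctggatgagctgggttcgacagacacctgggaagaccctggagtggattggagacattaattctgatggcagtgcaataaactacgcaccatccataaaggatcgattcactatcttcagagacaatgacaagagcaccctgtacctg
Igkv14-126: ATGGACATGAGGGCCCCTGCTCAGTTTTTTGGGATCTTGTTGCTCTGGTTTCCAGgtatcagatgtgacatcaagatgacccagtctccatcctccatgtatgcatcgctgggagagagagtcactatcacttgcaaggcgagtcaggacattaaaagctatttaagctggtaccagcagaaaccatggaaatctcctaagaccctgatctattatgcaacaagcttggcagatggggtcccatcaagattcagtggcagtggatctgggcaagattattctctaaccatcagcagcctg

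Depth was 39476214 UMIs over 11185 barcodes in ALLO and 45435231 UMIs over 17777 barcodes in SYN. Of these, 9792 and 11198 barcodes passed the UMI and mitochondrial limits, and 6929 ALLO and 6764 SYN barcodes the B cell limits. Gated B cells were deeper than comparison B cells, with a median of 4756 UMIs (1351 to 18485 over cells) against 3137 in ALLO, and 4724 (1498 to 23620) against 2975 in SYN. All gated B cells together held 129790 UMIs in ALLO and 154502 in SYN, which limits every gene value below. A barcode sequence occurred in both libraries 264 times, and 1 gated B cell had such a barcode.

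S100a6 and Anxa2, not the 2 repressor genes, put most cells through the gate. S100a6 gave 57.9% of the gate UMIs in ALLO, with 73 UMIs in 19 of 25 cells, and 70.1% in SYN, with 138 UMIs in 23 of 31 cells, of which 1 cell held 50. Anxa2 gave 39 UMIs in 12 ALLO cells and 30 in 14 SYN cells. Bhlhe41 was read in 8 ALLO and 12 SYN cells with 8 and 19 UMIs, and Zbtb32 in 4 ALLO and 6 SYN cells with 6 and 10 UMIs. No UMI of either repressor was found in 15 ALLO and 17 SYN cells, and 11 ALLO and 13 SYN cells passed on 1 gene alone. The gate sum had a median of 4 in both libraries and reached 14 in ALLO and 54 in SYN, while 10 ALLO and 14 SYN cells sat at the limit of 3. These values chose the cells and are a description of the gate.

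**Figure D1:**
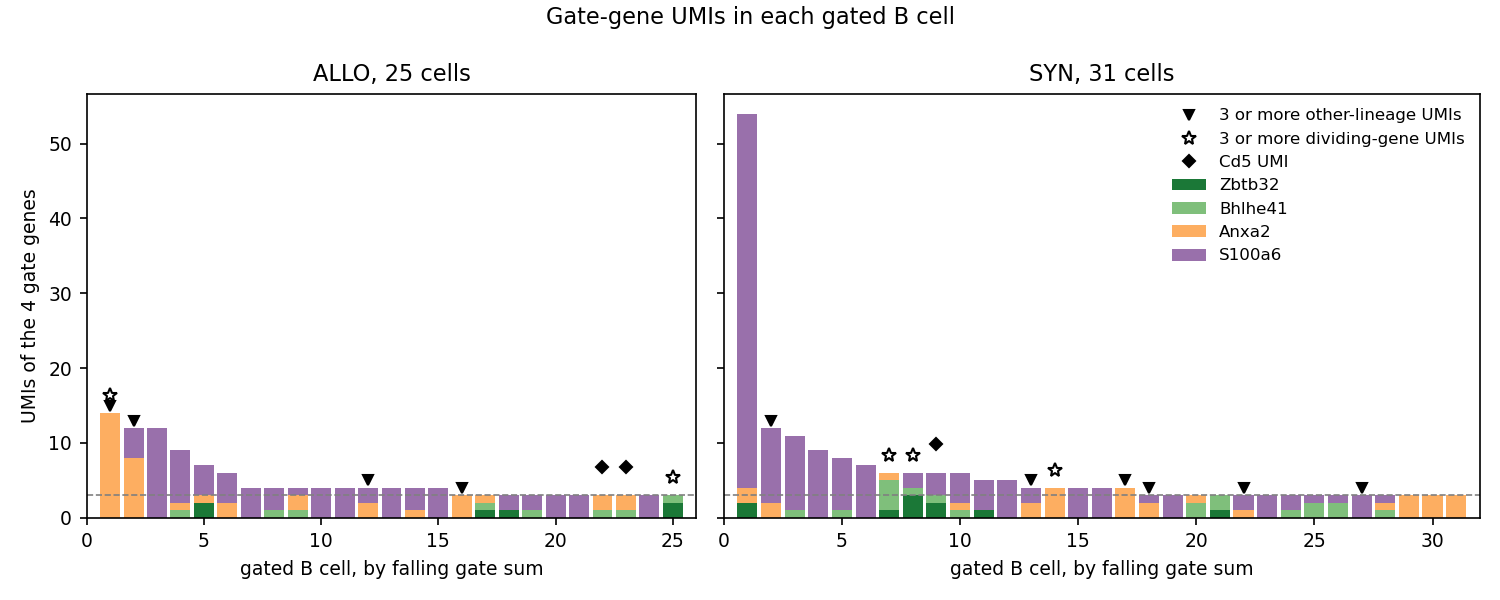
UMIs of the 4 gate genes in each gated B cell (bars, stacked by gene), ALLO on the left and SYN on the right, by falling sum, with the limit of 3 as a dashed line. S100a6 and Anxa2 fill most bars, 15 ALLO and 17 SYN bars hold no Zbtb32 or Bhlhe41, and the marks show cells with 3 or more UMIs of other lineages or of dividing genes and the cells with Cd5.

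The B1 and memory label was only partly borne out. Cd5, the B1a marker, was read in 2 of 25 ALLO and 1 of 31 SYN gated B cells, 8% (0.984 to 26.0%) and 3.23% (0.0816 to 16.7%), beside 0.837% and 1.21% of comparison B cells. As a share of summed UMIs, Cd5 was 12.7-fold (3.33 to 34.3) above comparison B cells in ALLO, from 4 UMIs. In SYN it was 3.34-fold (0.398 to 12.5), from 2 UMIs. With each cell thinned to 1000 UMIs, Cd5 remained in 1 ALLO and 0 SYN gated B cells, against 0.237% and 0.613% of comparison B cells and 20.9% and 22.1% of T cells, the main CD5 carriers. Pax5, a B lineage transcription factor gene outside the gate, was read in 15 of 25 ALLO gated B cells, 60%, against 54.1% of comparison B cells, and in 17 of 31 SYN gated B cells, 54.8%, against 51.1%. Thinned to 1000 UMIs the Pax5 shares were 20% against 22.3% in ALLO and 22.6% against 21.6% in SYN, beside 0.279% and 0.0507% of T cells.

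Some gated B cells carried genes of other lineages. At least 3 UMIs over fixed marker lists of T, NK, myeloid, neutrophil, dendritic and red cells or platelets were found in 4 ALLO and 6 SYN gated B cells, against 0.853% and 2.27% of comparison B cells. NK genes reached 3 UMIs in 2 cells of each library, with up to 67 UMIs in 1 ALLO and 46 in 1 SYN cell, and 1 SYN cell held 131 neutrophil UMIs. At least 3 UMIs of dividing genes such as Mki67 and Top2a were found in 2 ALLO and 3 SYN cells, against 0.869% and 0.855% of comparison B cells. Without these 14 cells, 42 gated B cells were left, 20 in ALLO and 22 in SYN, and the NK, neutrophil, dendritic and dividing lists were then at 0 UMIs in both libraries. Results below are given with all 56 cells and, where it matters, without the 14.

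Gated B cells were 0.361% (0.234 to 0.532%) of B-gated barcodes in ALLO, 25 of 6929, and 0.458% (0.312 to 0.650%) in SYN, 31 of 6764. The ALLO over SYN ratio was 0.787 (0.446 to 1.38). The interval spans 1, so a difference in their share was not detectable at this depth. Before the last 3 limits, 117 ALLO and 123 SYN B-gated barcodes had a gate sum of at least 3. The CD23 gene Fcer2a, a follicular marker, was present in 66 and 68 of these, more than 1 marginal zone UMI in 46 and 54, and at least 3 Jchain UMIs in 9 and 6.

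The B1a receptor pair was found in 3 gated B cells, a higher share than in comparison B cells, with intervals that did not overlap in ALLO and overlapped in SYN. A cell was given a segment where 3 UMIs or more fell on it, and 2 times as many as on the runner-up. Ighv11-2 with Igkv14-126 was found in 2 of 15 ALLO gated B cells with both chains assigned, 13.3% (1.66 to 40.5%), against 3 of 4203 comparison B cells, 0.0714% (0.0147 to 0.208%). In SYN it was found in 1 of 22 gated B cells, 4.55% (0.115 to 22.8%), against 3 of 4138 comparison B cells, 0.0725% (0.0150 to 0.212%). Among B-gated cells with a gate sum of at least 3 that failed another limit, the pair was found in 1 of 59 in ALLO, 1.69%, and in 4 of 56 in SYN, 7.14%. The 37 gated B cells with both chains held 35 different pairs of segments. The same count was not made for as many comparison B cells, so it is not read as a trait of the gated B cells. Ighv12-3 and Igkv4-91, the other segments of the phosphatidylcholine repertoire, were assigned to none, and Ighv7-1, a segment of anti-phosphorylcholine B1 antibodies, to 1 SYN cell.

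The other assigned segments were a mix of common and rarer ones. Ighv1-26 was assigned to 2 of 20 ALLO gated B cells, against 5.97% of ALLO comparison B cells, and to 2 of 26 SYN gated B cells, against 6.86%. Among kappa segments, Igkv1-110 led in SYN, in 3 of 24 gated B cells against 3.30% of comparison B cells. In ALLO, Igkv1-135, Igkv10-96 and Igkv9-120 were each assigned to 2 of 18 gated B cells, against 3.61%, 5.89% and 2.64% of comparison B cells. Rarer in comparison B cells were Igkv4-68, in 2 of 24 SYN gated B cells against 0.746%, and Ighv14-2, in 2 of 20 ALLO gated B cells against 1.26%. No segment was assigned to more than 3 gated B cells of a library.

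All B-gated cells with the B1a pair, 7 in ALLO and 9 in SYN, had some features of the gated B cells, although no gate gene chose them. None of the 16 held an Fcer2a UMI. To Ighm 15 were assigned, which is near the 89.6% of assigned ALLO and 87.8% of assigned SYN comparison B cells. Cd5 was held by 4, beside 0.837% and 1.21% of comparison B cells. A gate sum of at least 3 was reached by 8 of the 16, beside 117 of 6929 ALLO and 123 of 6764 SYN B-gated barcodes. These 8 were 3 gated B cells and 5 that failed on marginal zone genes, while 6 of the 16 had no UMI of the 4 gate genes. Of the 16, 11 had more than 1 marginal zone UMI. The tetraspanin gene Cd9, 1 of those genes, was at 107 UMIs per 1000000 UMIs (CPM) in ALLO pair cells against 15.1 in other cells with both chains, and at 229 against 22.1 in SYN. Bhlhe41 was at 85.8 CPM in ALLO pair cells against 8.10 in other cells, 10.6-fold (2.85 to 27.7), and at 160 against 8.29 in SYN, 19.3-fold (7.62 to 40.9). Ahnak, which encodes a giant scaffold protein, was 5.25-fold (2.93 to 8.71) and 8.42-fold (5.18 to 12.9) higher in ALLO and SYN pair cells, and Plac8 2.88-fold (2.21 to 3.69) and 4.44-fold (3.55 to 5.49). Vim was at 1.28-fold (0.769 to 1.998) in ALLO pair cells and 3.67-fold (2.71 to 4.85) in SYN. Zbtb32 had 0 UMIs in ALLO pair cells and 4 in SYN, and Spn 1 in ALLO and 0 in SYN.

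Switched antibody classes were more frequent in gated B cells, while IgM prevailed in both populations. With the same limits as for segments, 17 ALLO gated B cells were assigned to Ighm and 2 to Igha, and 6 stayed unassigned. In SYN, 20 were assigned to Ighm, 2 to Igha and 1 to Ighg2b, and 8 stayed unassigned. A switched class was thus found in 2 of 19 assigned ALLO gated B cells, 10.5% (1.30 to 33.1%), against 23 of 3540 comparison B cells, 0.650% (0.412 to 0.973%). In SYN it was found in 3 of 23, 13.04% (2.78 to 33.6%), against 16 of 3181, 0.503% (0.288 to 0.816%). Over both libraries 5 of 42 gated B cells were switched against 39 of 6721 comparison B cells, a ratio of 20.5 (8.51 to 46.1). None of the 5 held a UMI of other lineages or of dividing genes. Their gate sums were 3 or 4, and among gated B cells with a sum of at least 5, 0 of 14 assigned cells were switched. The SYN cell with a sum of 11 held 8 Ighg2b beside 10 Ighm UMIs, and 1 SYN cell with a sum of 6 held 4 beside 5. Both stayed unassigned and are not among the 14. Between ALLO and SYN gated B cells the ratio of switched shares was 0.807 (0.172 to 3.68), an interval too wide to show a difference in either direction.

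Ighd, the IgD constant gene of naive B cells, was low in gated B cells. It was at 123 CPM in ALLO gated B cells against 518 in comparison B cells, a ratio of 0.238 (0.136 to 0.387), and at 201 against 523 in SYN, a ratio of 0.383 (0.260 to 0.545). Ighd UMIs were found in 8 of 25 ALLO gated cells against 75.5% of comparison cells, and in 16 of 31 SYN gated cells against 72.4%. Thinned to 1000 UMIs the shares were 16% against 40.8% in ALLO and 9.68% against 40.5% in SYN, beside 0.907% and 1.32% of T cells, which do not express the gene and so show its background, and had a median of 4288 UMIs in ALLO and 4181 in SYN. Ighm was closer to the comparison B cells, at 1063 CPM against 1282 in ALLO, a ratio of 0.829 (0.697 to 0.980), and at 1269 against 1225 in SYN, 1.03 (0.895 to 1.19). Ighg2b was at 23.1 CPM against 4.02 in ALLO, from 3 UMIs in 1 cell, and at 123 against 5.74 in SYN, from 19 UMIs in 5 cells.

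Gene by gene, each library's gated B cells were compared with its own comparison B cells as shares of summed UMIs. At least 1.5-fold higher in both libraries were 856 of 11024 genes tested, 7.76%, and at least 1.5-fold lower 1846, 16.7%. Tested genes had at least 20 UMIs over both sums. A gene with 20 UMIs in comparison B cells is expected at only 0.115 UMIs in ALLO and 0.152 in SYN gated B cells, so many lower calls are genes with no UMI there. For such a gene 1 UMI in the gated B cells of each library is enough for a higher call. Among 3575 genes with at least 5 expected UMIs, a limit added after the data were seen, 105 were higher, 2.94%, and 225 lower, 6.29%. Since these cells were chosen by transcripts of the same cells, the values describe the population and support no test.

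S100, annexin, galectin and cytoskeleton genes outside the gate were high as a list. Summed over the list, they were at 9793 CPM in ALLO gated B cells against 3426 in comparison B cells, 2.86-fold (2.70 to 3.02), and at 8175 against 3353 in SYN, 2.44-fold (2.30 to 2.58). Of 20 tested genes 12 were at least 1.5-fold higher in both libraries and 1, Lgals9, lower, beside 7.76% and 16.7% of all genes. Among the 14 with at least 5 expected UMIs, 7 were higher and 1 lower, beside 2.94% and 6.29% of all such genes. Over these 14 genes the median log2 ratio was 0.98 in ALLO and 0.88 in SYN, against -0.03 and -0.06 over all such genes. Without the 14 cells above, the summed ratios were 2.39 and 2.95.

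Vim, which encodes the intermediate filament vimentin, was read in 20 of 25 ALLO gated B cells with a median of 3 and at most 44 UMIs, against 44.3% of comparison B cells with a median of 0. In SYN it was read in 22 of 31 gated B cells with a median of 2 and at most 56 UMIs, against 41.3% of comparison B cells with a median of 0. Its level was 1741 CPM against 278 in ALLO, 6.27-fold (5.46 to 7.16), and 1262 against 268 in SYN, 4.70-fold (4.06 to 5.42). The ranges of single cells overlapped, since some gated cells had no Vim UMI and comparison cells reached 32 UMIs in ALLO and 26 in SYN. Thinned to 1000 UMIs, 56% of ALLO gated B cells held Vim against 21.5% of comparison B cells, and 41.9% against 21.2% in SYN, beside 27.4% and 25.8% of ALLO and SYN T cells, so the gap was present at equal depth.

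Ahnak followed the same pattern. It was at 447 CPM in ALLO gated B cells against 47.8 in comparison B cells, 9.35-fold (7.05 to 12.2), from 58 UMIs in 20 cells. In SYN it was at 401 against 45.2, 8.88-fold (6.75 to 11.5), from 62 UMIs in 15 cells, of which 1 held 37.1%. Crip1, a LIM domain protein gene, was at 1895 CPM against 677 in ALLO, 2.80-fold (2.46 to 3.18), and at 1890 against 618 in SYN, 3.06-fold (2.71 to 3.43). Tagln2, an actin-binding protein gene, was 3.42-fold (2.69 to 4.30) and 4.71-fold (3.81 to 5.76) higher in ALLO and SYN. S100a10, which encodes the binding partner of annexin A2, was 3.55-fold (2.97 to 4.21) and 2.08-fold (1.71 to 2.51) higher. Lgals1, the galectin 1 gene, was at 863 CPM against 17.2 in ALLO, but 1 cell held 77.7% of its 112 UMIs. Without the 14 cells the Lgals1 ratio was 2.68 in ALLO and 8.24 in SYN, while those of Ahnak were 9.85 and 12.9 and those of Vim 5.83 and 6.22.

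Other genes spread over at least 5 gated B cells of each library, a condition added after the data were seen, also stood high. Nid1, which encodes the basement membrane protein nidogen 1, was at 46.2 CPM against 5.75 in ALLO, 8.04-fold (2.90 to 18.0), and at 45.3 against 5.84 in SYN, 7.76-fold (3.05 to 16.5). It had 6 UMIs in 5 ALLO and 7 in 5 SYN gated B cells, and thinned to 1000 UMIs it was read in 0 of 25 ALLO gated B cells against 0.506% of comparison B cells and in 1 of 31 against 0.532% in SYN. Actn1, an alpha-actinin gene, was 18.8-fold (9.09 to 35.1) and 7.60-fold (3.73 to 13.9) higher. Rassf4, Ccdc28b and Myadm lay between 4.10-fold and 6.51-fold in both libraries. Tyrobp, an adaptor of NK and myeloid receptors, was 6.25-fold and 9.85-fold higher with all cells and 1.51-fold and 2.30-fold without the 14. Hmgb2, a chromatin protein gene of dividing cells, was 4.40-fold and 3.89-fold higher with all cells and at ratios of 1.01 and 0.76 without them. Beside Tyrobp and Hmgb2 the other-lineage and dividing lists moved as given above, and with those cells gone most of the excess of both genes was gone too.

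**Figure D2:**
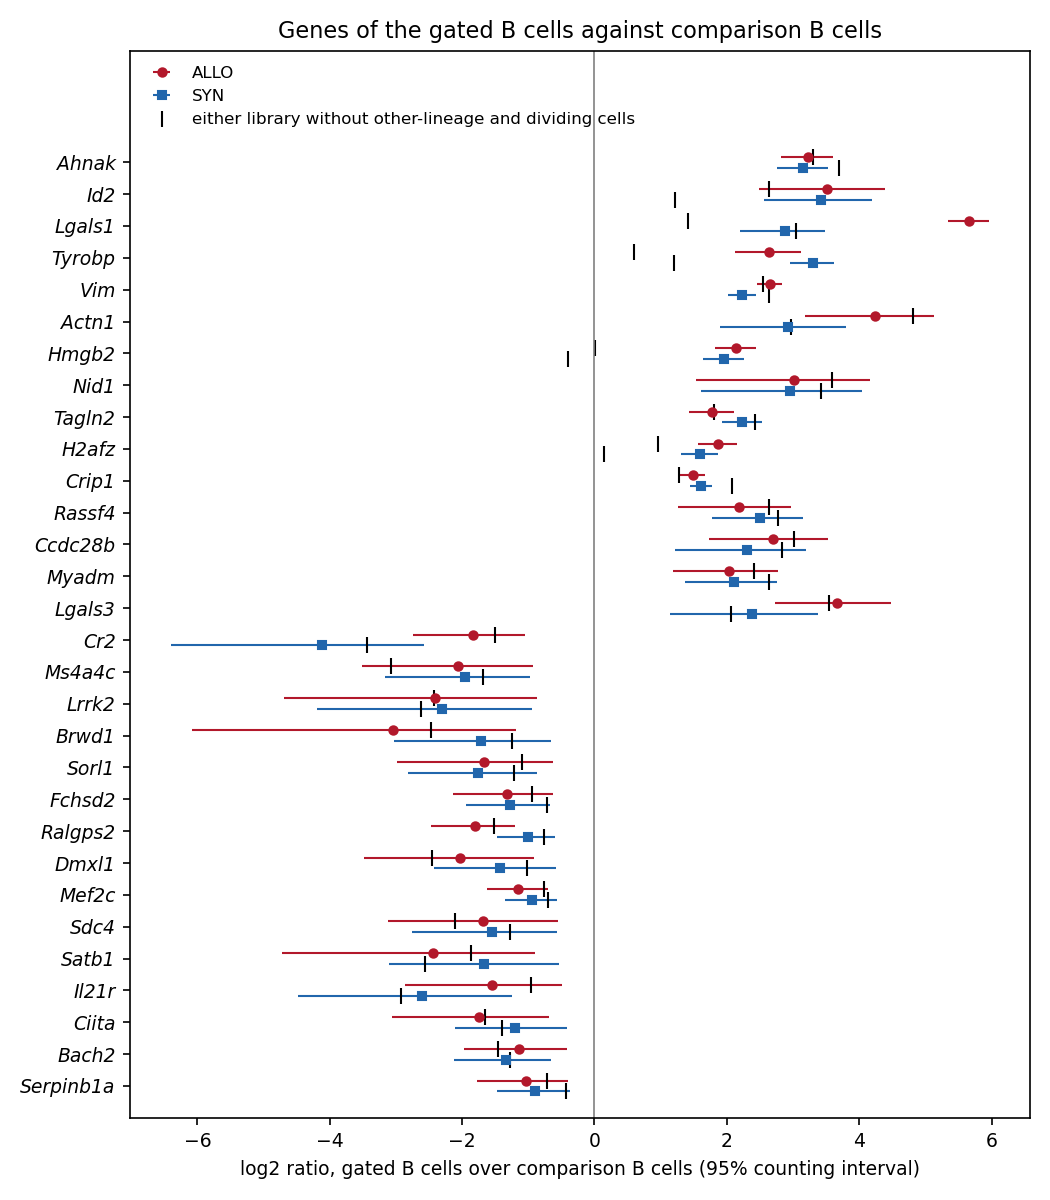
Log2 ratio of gated over comparison B cells (x axis) in ALLO (circles) and SYN (squares) with 95% counting intervals, for 15 high genes read in at least 5 gated cells of each library and for the 15 lowest genes, and ticks for the ratio without the 14 cells with other-lineage or dividing transcripts. Ahnak, Vim, Nid1 and Tagln2 keep their ratio at the tick, while Tyrobp and Hmgb2 move toward 0.

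Markers of B1 cells outside the gate were higher as a list. Summed, they were at 1387 CPM in ALLO gated B cells against 734 in comparison B cells, 1.89-fold (1.62 to 2.19), and at 1275 against 719 in SYN, 1.77-fold (1.53 to 2.04). At least 1.5-fold higher in both libraries were 7 of 10 tested genes and 0 lower, beside 7.76% and 16.7% of all genes. Most rest on few UMIs. Only 2, Plac8 and Siglecg, had at least 5 expected UMIs, of which 1, Plac8, was higher, beside 2.94% of all such genes. The median log2 ratio of these 2 was 0.44 in ALLO and 0.31 in SYN. Plac8, a cysteine-rich protein gene of B1 and other innate-like cells, carried most of the sum, at 848 CPM against 419 in ALLO and 835 against 374 in SYN, 2.02-fold (1.66 to 2.44) and 2.23-fold (1.86 to 2.66). Of its 110 ALLO UMIs, 41.8% were in 1 dividing cell, and without the 14 cells the Plac8 ratios were 1.75 and 2.46. Thinned to 1000 UMIs, Plac8 was read in 32% of ALLO gated B cells against 23.1% of comparison B cells and in 22.6% (9.59 to 41.1%) against 21.02% in SYN. The ALLO interval, 14.9 to 53.5%, also held the comparison share, so a higher share was not detectable at equal depth. Spn, the gene of the B1 surface marker CD43, was at 84.8 CPM against 7.03 in ALLO, 12.1-fold (5.90 to 22.2), and at 38.8 against 7.80 in SYN, 4.98-fold (1.80 to 11.1). At 1000 UMIs per cell Spn was read in 12% (2.55 to 31.2%) of ALLO gated B cells against 0.774% of comparison B cells. In SYN the shares were 3.23% (0.0816 to 16.7%) against 0.904%, so a higher share was not detectable there. Among T cells 11.2% in ALLO and 10.7% in SYN held Spn. Without the 14 cells the Spn ratios were 8.17 and 5.35. Plscr1, a phospholipid scramblase gene, was 6.65-fold (2.12 to 15.9) and 11.99-fold (5.59 to 22.9) higher. Ctla4, an inhibitory receptor that B1a cells carry in mice, had 5 UMIs in 4 ALLO cells and 2 in 2 SYN cells, 39.6-fold (11.7 to 107) and 11.99-fold (1.37 to 48.8). Siglecg, an inhibitor of B1a receptor signals, was at ratios of 0.909 (0.603 to 1.32) and 0.686 (0.455 to 0.992).

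Memory B cell markers gave no common direction. Their sum was at 616 CPM in ALLO gated B cells against 772 in comparison B cells, a ratio of 0.798 (0.632 to 0.994), and at 919 against 775 in SYN, 1.19 (0.998 to 1.40). Cd80, a costimulatory ligand gene that marks memory B cells, was at 23.1 CPM against 1.02 in ALLO from 3 cells, 22.7-fold (4.37 to 75.2), and at 25.9 against 1.28 in SYN from 4 cells, 20.3-fold (5.15 to 58.5). At 1000 UMIs per cell it was read in 2 ALLO and 1 SYN gated B cells, against 0.0790% and 0.177% of comparison B cells and 0.0698% and 0.0507% of T cells. Nt5e, which encodes CD73, had 4 UMIs in 4 ALLO cells, 30.3-fold (7.62 to 88.7), and 1 UMI in 1 SYN cell, 7.33-fold (0.176 to 46.4). Cd44, an adhesion receptor gene, was at ratios of 2.26 (1.03 to 4.31) and 1.97 (0.897 to 3.77). At least 1.5-fold higher in both libraries were 4 of 13 tested genes and 2 lower, beside 7.76% and 16.7% of all genes, and over the 6 with at least 5 expected UMIs the median log2 ratio was -0.82 in ALLO and -0.17 in SYN. Abundant members of the list pulled the other way, with Klf4 at 0.435 and 0.612, Ccr6 at 0.194 and 0.494 and Hhex at 0.752 and 0.826.

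Of 15 trafficking genes tested, 4 were higher and 1 lower by 1.5-fold in both libraries, beside 7.76% and 16.7% of all genes. Among the 12 with at least 5 expected UMIs, 2 were higher, beside 2.94% of all such genes. Itgb1, the beta 1 integrin gene, was at 84.8 CPM in ALLO gated B cells against 19.8 in comparison B cells, 4.29-fold (2.13 to 7.75), and at 175 against 22.9 in SYN, 7.63-fold (4.97 to 11.2). Itgb7 was 2.99-fold (2.05 to 4.21) and 1.74-fold (1.13 to 2.55) higher, and Itga4, which pairs with either, 1.64-fold (1.19 to 2.21) and 1.58-fold (1.19 to 2.05). The chemokine receptor gene Ccr7 was at ratios of 1.01 (0.670 to 1.46) and 0.730 (0.462 to 1.10), with intervals that span 1. Of the plasma cell list, Mzb1, an endoplasmic reticulum chaperone gene of B1 and marginal zone cells, was 1.64-fold (1.29 to 2.06) and 1.76-fold (1.42 to 2.15) higher, while Xbp1 was at ratios of 0.722 and 1.15.

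Genes of receptor signalling and of mature B cells were among the 15 lowest. Cr2, which encodes the complement receptor CD21, was at 100 CPM in ALLO gated B cells against 356 in comparison B cells, a ratio of 0.281 (0.150 to 0.481), and at 19.4 against 338 in SYN, 0.0575 (0.0119 to 0.168). It was read in 8 of 25 ALLO gated B cells against 51.4% of comparison B cells, and in 3 of 31 SYN gated B cells against 47.8%. Bach2, a repressor that holds B cells in the naive state, was at 116 CPM against 253 in ALLO, a ratio of 0.456 (0.255 to 0.753), and at 110 against 279 in SYN, 0.394 (0.230 to 0.632). Mef2c, a transcription factor gene of receptor signalling, was at ratios of 0.451 and 0.519, and Satb1, a chromatin organiser gene, at 0.184 and 0.316. Ciita, the master activator of class II genes, was at 0.300 and 0.436, and Il21r at 0.344 and 0.164. Ralgps2, Fchsd2, Sorl1, Ms4a4c, Lrrk2, Brwd1, Dmxl1, Sdc4 and Serpinb1a completed the 15 lowest, at ratios between 0.122 and 0.536. Without the 14 cells with other-lineage or dividing transcripts all 15 stayed below 1, with Cr2 at 0.355 and 0.0927 and Mef2c at 0.590 and 0.613. The intervals of Il21r in ALLO (0.206 to 1.06) and of Serpinb1a in SYN (0.482 to 1.10) then spanned 1.

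Broader B cell lists were mostly below comparison B cells as sums, less so without the 14 cells. B lineage transcription factors had a summed ratio of 0.865 (0.795 to 0.940) in ALLO, and in SYN of 0.794 (0.732 to 0.859). Without the 14 cells the ratios were 0.968 and 0.966. Of 15 tested factors 0 were higher and 3 lower by 1.5-fold in both libraries, namely Bach2, Foxo1 and Pax5, beside 16.7% of all genes lower. All 3 were among the 14 factors with at least 5 expected UMIs, beside 6.29% of all such genes. Pax5 without the 14 cells was at 0.794 and 0.768 and no longer past 1.5-fold. Follicular genes were at 0.917 and 0.752 and, without the 14 cells, at 1.13 and 0.918. Marginal zone genes outside the gate, Cr2 among them, were at 0.402 (0.263 to 0.590) and 0.237 (0.140 to 0.375), and at 0.484 and 0.318 without the 14 cells. The gate capped other marginal zone genes in gated but not in comparison B cells, so a low value of this list was in part fixed by the choice of cells. Activation genes such as Cd69 and Junb were at 0.695 (0.642 to 0.751) and 0.790 (0.735 to 0.847). Germinal centre genes summed to a ratio of 1.98 (1.22 to 3.04) in ALLO, whereas the SYN ratio was 0.882 (0.455 to 1.54). These were 2.67 and 0.593 without the 14 cells. In ALLO, Basp1 gave 10 UMIs in 3 cells, 28.6-fold (13.05 to 56.2) above comparison B cells, and 2 UMIs in 1 SYN cell. Bcl6, the master repressor of germinal centre B cells, had 3 UMIs in each library, with ratios of 0.486 (0.100 to 1.42) and 0.366 (0.0753 to 1.07).

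**Figure D3:**
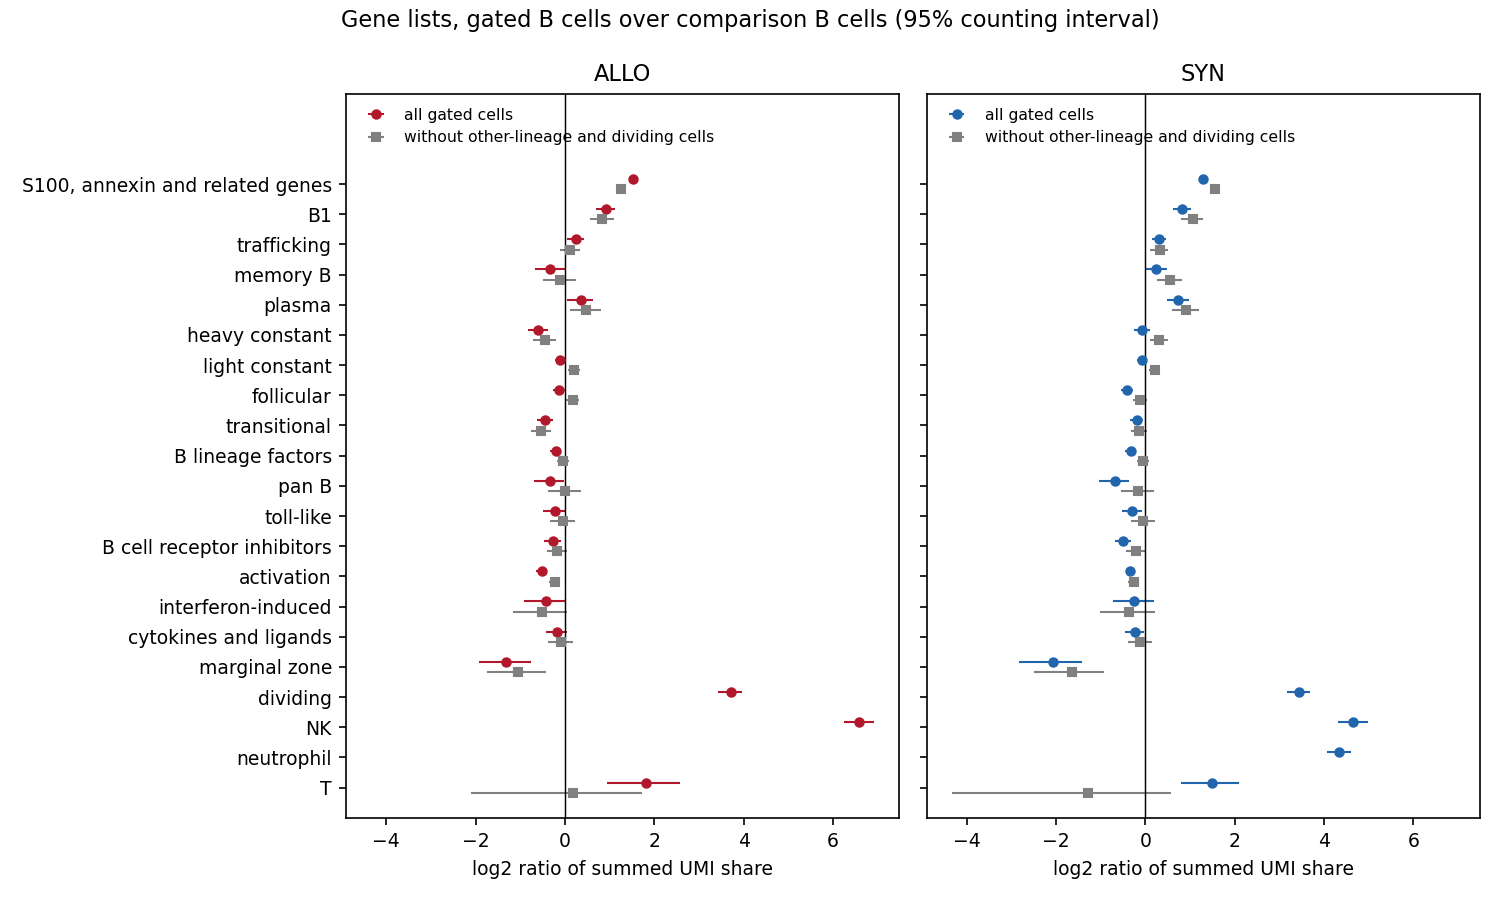
Log2 ratio of each list's summed UMI share in gated over comparison B cells (x axis), ALLO on the left and SYN on the right, with 95% counting intervals, for all gated cells (coloured) and without the 14 cells with other-lineage or dividing transcripts (grey). The S100 and annexin and the B1 lists lie right of 0 in all 4 sets, the marginal zone list lies left of 0, and the dividing, NK and neutrophil lists have no grey point because no UMI was left.

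The highest ratios of all belonged to genes carried by a few cells. The 15 highest genes were the NK and cytotoxic genes Fcer1g, Nkg7, Ncr1, Gzma, Ccl5, Fyb and Klrd1 and the mitosis genes Cdca3, Ube2c, Cdkn3, Ccna2, Birc5, Ccnb2, Cenpf and Ccnb1. Gzma, the granzyme A gene, was at 578 CPM in ALLO gated B cells against 1.81 in comparison B cells, and at 207 against 8.10 in SYN, from 2 ALLO and 3 SYN cells. Ube2c, a gene of mitotic exit, was at 123 CPM against 4.60 in ALLO and at 181 against 4.96 in SYN, with 87.5% and 89.3% of its UMIs in 1 cell. Without the 14 cells no UMI of these 15 genes was left in SYN, and in ALLO Fcer1g, Ccl5 and Fyb had 3, 26 and 2 UMIs left and the other 12 had none. The genes that then stood highest were led by Ahnak, Krt222, Vim, Cd80 and Nid1.

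Levels also moved with the gate sum among B cells that met every other limit. Vim was at 313, 454, 428 and 1741 CPM in ALLO cells with a gate sum of 0, 1, 2 and at least 3, and at 327, 497, 622 and 1262 in SYN. Ahnak was at 64.2, 154, 161 and 447 CPM in ALLO and at 62.4, 170, 357 and 401 in SYN. Ighd was at 504, 400, 388 and 123 CPM in ALLO and at 499, 353, 251 and 201 in SYN, and Cr2 at 281, 165, 66.9 and 100 in ALLO and at 249, 138, 79.4 and 19.4 in SYN. The comparison B cells held to the same limits, those with a sum of 0, thus differed from gated B cells in the same direction as all comparison B cells. Median depth was 2771, 3234.5, 3692 and 4756 UMIs over these ALLO classes and 2528.5, 2726, 2687 and 4724 in SYN, and its part in the levels was not tested.

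Just outside the gate, at a sum of 2, lay 15 ALLO and 26 SYN cells, and just inside, at a sum of 3, lay 10 and 14. Vim was at 775 CPM in the 10 ALLO cells just inside against 428 in the 15 just outside, and at 608 against 622 in SYN. Ighd was at 180 against 388 CPM in ALLO and at 196 against 251 in SYN. Of the 43 Vim UMIs in the ALLO cells just inside, 34 were in 1 dividing cell. That cell also held 18485 of the 55494 UMIs of these cells and 0 Ighd UMIs, so both ALLO levels just inside turn on it. A switched class was assigned to 0 of 8 cells just inside against 2 of 12 just outside in ALLO, and to 3 of 10 against 1 of 13 in SYN. These counts are too small to place a boundary at the limit.

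**Figure D4:**
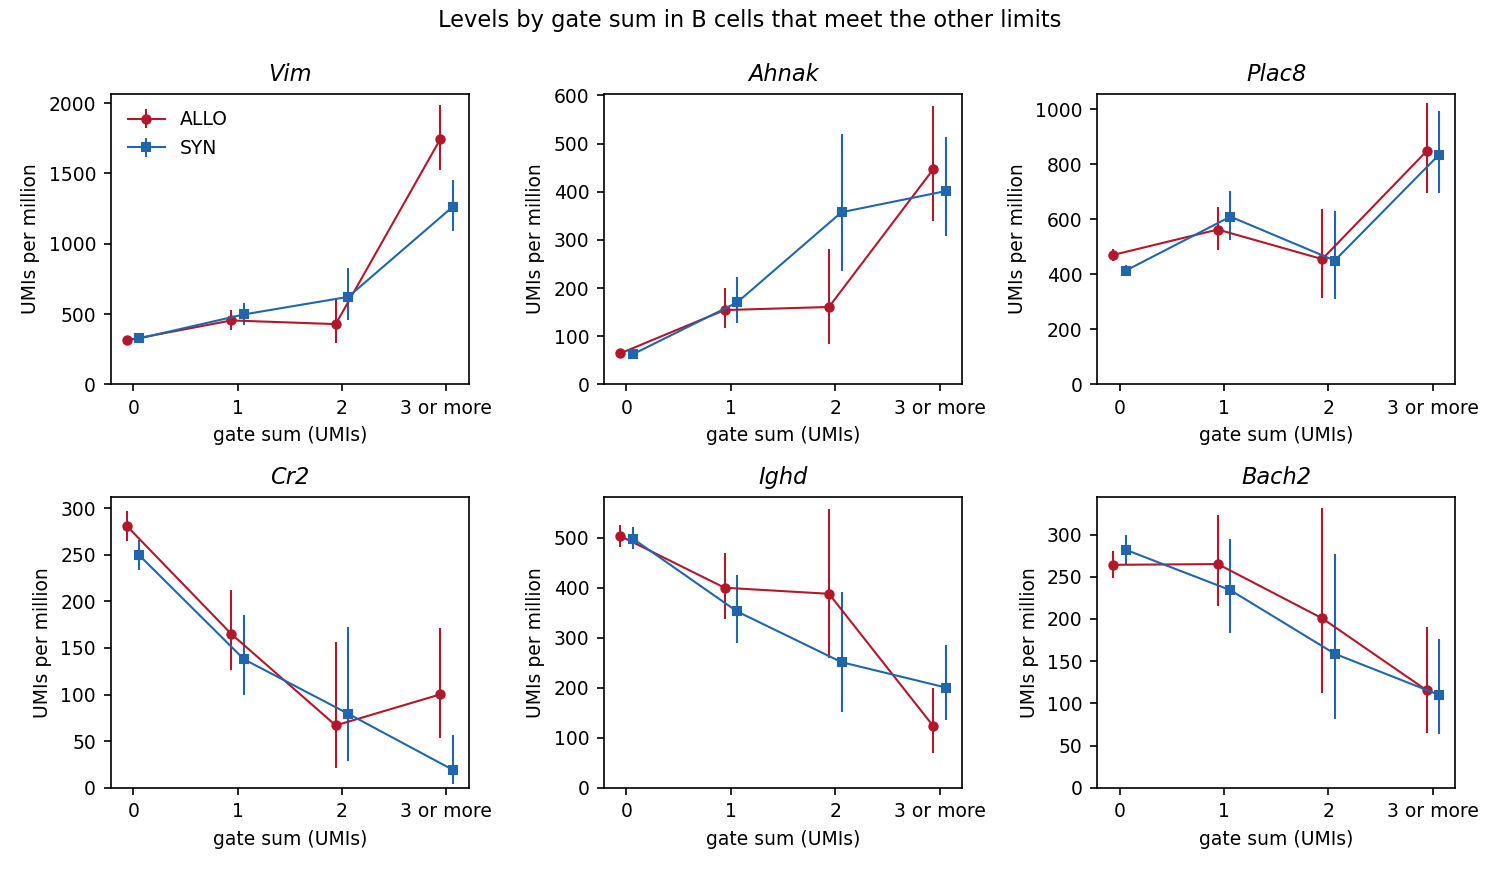
CPM of 6 genes (y axes) by gate sum (x axes) in B cells with no Fcer2a, at most 1 marginal zone UMI and fewer than 3 Jchain UMIs, ALLO (circles) and SYN (squares), with 95% Poisson intervals for counting error. Vim and Ahnak are highest and Ighd and Bach2 lowest at a sum of at least 3, where 25 ALLO and 31 SYN cells lie.

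Gated B cells were also sorted by their UMIs of the 2 repressor genes, which are part of the gate. Over all gated cells these gave 14 UMIs in ALLO and 29 in SYN, so a count of 0 in a cell does not show absence. Zbtb32 and Bhlhe41 summed to at least 2 UMIs in 3 ALLO and 8 SYN cells, to 1 in 7 and 6, and to 0 in 15 and 17. All 10 cells with 3 or more other-lineage UMIs had neither repressor. A cell without either could pass the gate only on S100a6 and Anxa2, so the split was in part set by the choice of cells. The 3 cells with the B1a receptor pair each had 1 UMI of the repressors, as had both Igha cells of ALLO and 1 of the 2 in SYN. The Ighg2b cell of SYN had none. Cd80 was read in 0 cells with at least 2 repressor UMIs, in 3 with 1 and in 4 with none.

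Cells with at least 2 repressor UMIs, pooled over the libraries, were compared with cells without any. The 4 genes named as highest were ranked by their interval bound. Sh3kbp1 was at 2.79-fold (1.23 to 6.60), and Tnfrsf13b, which encodes the BAFF and APRIL receptor TACI, at 1.97-fold (1.06 to 3.69). Scand1 was at 1.87-fold (1.06 to 3.31) and the actin capping gene Capg at 1.81-fold (1.16 to 2.83). They were picked as extremes of all genes compared, which their intervals do not allow for. The share of all genes with such an interval is not given here. Lowest were Ccl5 and Fcer1g, at 0 against 161 UMIs and 0 against 60, beside which the other-lineage cells moved as given. The feedback phosphatase genes Dusp1 and Dusp2 were each at 64.5 against 449 CPM, a ratio of 0.143 (0.0450 to 0.353), and Zfp36, an mRNA decay factor gene, was at 0.314 (0.214 to 0.450). Of the cells with at least 2 repressor UMIs, 3 of 11 were dividing and held 56.9% of the UMIs, against 2 of 32 cells and 11.8% of those without. With dividing and other-lineage cells left out, 8 and 21 cells remained. Sh3kbp1 was then at 7.44-fold (2.26 to 31.7), from 12 against 4 UMIs, and Scand1 at 3.24-fold (1.48 to 7.26), from 17 against 13. Capg was at 1.999-fold (1.18 to 3.35), from 29 against 36, and Dusp2 at 0.289 (0.0892 to 0.727), from 5 against 43. The intervals of Tnfrsf13b (0.807 to 3.87), Dusp1 (0.118 to 1.002) and Zfp36 (0.486 to 1.07) then spanned 1. The pooled cells came 3 from ALLO and 8 from SYN against 15 and 17, and the part of that imbalance was not tested.

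Between the libraries, the gated B cells of ALLO were compared with those of SYN, which the gate did not use. Of 2190 genes with at least 20 UMIs over both, 287, 13.1%, were at least 1.5-fold higher in ALLO and 359, 16.4%, lower, with a median log2 ratio of -0.02. The 12 highest and 12 lowest by the interval bound nearest to 1 are given, leaving out genes with over 25% of UMIs in 1 cell of the higher library, such as S100a9 with 0 ALLO UMIs against 72 SYN UMIs in 1 cell. Ebf1, a founding transcription factor of the B lineage, was at 570 CPM in ALLO gated B cells against 337 in SYN, 1.69-fold (1.17 to 2.46), and read in 20 of 25 ALLO against 18 of 31 SYN cells. In comparison B cells the Ebf1 ratio was 0.996. Lrmp, an endoplasmic reticulum membrane protein gene of lymphocytes, was at 146 against 32.4 CPM, 4.52-fold (1.63 to 15.5), S100a13 at 223 against 84.1, 2.66-fold (1.34 to 5.56), and Cirbp, a cold-inducible RNA-binding protein gene, at 185 against 64.7, 2.86-fold (1.32 to 6.69). The same ratios in comparison B cells were 0.943, 0.973 and 1.31. Lbh, Rhob, Mrpl21, Uqcrh, Arl2bp, Ptprcap, Ppp4r3a and Psmd8 completed the 12, between 1.69-fold and 4.76-fold.

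Junb and Ifi30 had the most UMIs among the 12 lowest genes. Ifi30, which encodes a lysosomal thiol reductase of antigen processing, was at 254 CPM in ALLO gated B cells against 667 in SYN, a ratio of 0.381 (0.250 to 0.569), read in 15 of 25 against 23 of 31 cells. Spi1, the gene of the myeloid and B cell factor PU.1, was at 61.6 CPM in ALLO against 220 in SYN, 0.280 (0.112 to 0.616), and Lmo2, a transcription cofactor gene, at 53.9 against 188, 0.287 (0.106 to 0.670). Pde4b, a cyclic AMP phosphodiesterase gene, was at 53.9 against 220, 0.245 (0.0917 to 0.562). Junb, an AP-1 subunit gene, was at 901 against 1430, 0.630 (0.499 to 0.792), with 1.01 in comparison B cells. Without the 14 cells the ratios of Ifi30, Spi1 and Junb were 0.511, 0.481 and 0.688, and the Spi1 interval then spanned 1 (0.167 to 1.24). So did those of Pip4k2a, Capza2 and Cdk11b among the 12 lowest and of Mrpl21, Arl2bp, Ptprcap, Ppp4r3a and Psmd8 among the 12 highest. Acp5, the acid phosphatase gene, was at 0.430 (0.209 to 0.830), and among these 24 genes it alone was also past 1.5-fold in comparison B cells, at 0.609. Pip4k2a, Cyb561a3, Mdp1, Capza2, Fam104a and Cdk11b completed the 12, at ratios between 0.210 and 0.387.

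**Figure D5:**
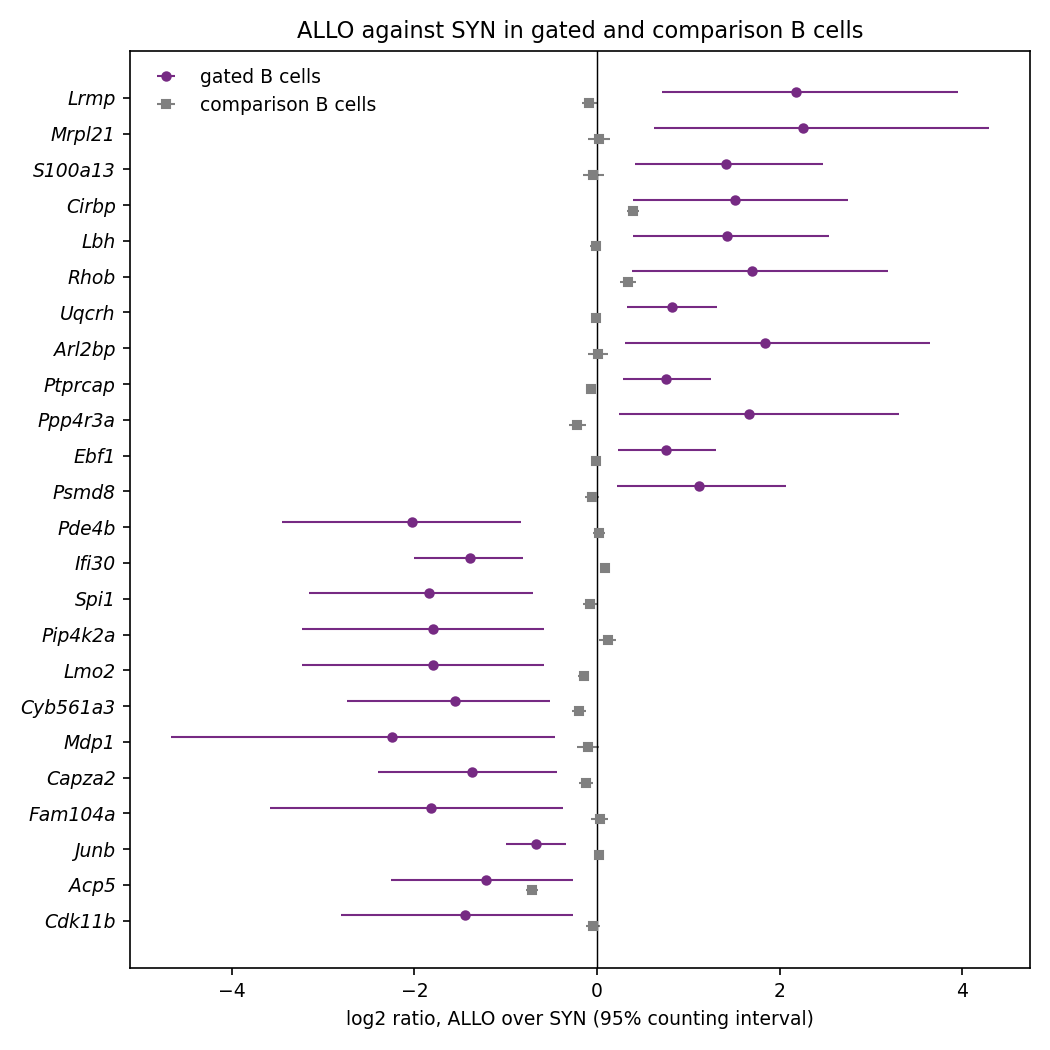
Log2 ratio of ALLO over SYN (x axis) for the 12 highest and 12 lowest genes in gated B cells (circles), and the same ratio in comparison B cells (squares), with 95% counting intervals. The intervals of gated B cells are wide, and most comparison B cell ratios lie near 0, with Acp5 the farthest from it.

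Of 26 gene lists, 10 had an ALLO over SYN interval in gated B cells that left out 1. Memory B markers were lower in ALLO, at 616 CPM against 919 in SYN, a ratio of 0.671 (0.503 to 0.888), beside 0.997 in comparison B cells, and at 0.631 (0.454 to 0.871) without the 14 cells. Heavy chain constant genes were at 0.762 (0.624 to 0.928), beside 1.10 in comparison B cells. Follicular genes were at 1.19 (1.04 to 1.36), beside 0.975. Transitional B genes were at 0.818 (0.696 to 0.960) and age-associated B genes at 0.733 (0.553 to 0.968), the second with an interval that spanned 1 without the 14 cells (0.419 to 1.23). The other-lineage lists among the 10 rest on few cells, with NK at 1.54 (1.16 to 2.04), myeloid at 0.198 (0.0216 to 0.891), and neutrophil and dendritic at 0 UMIs in ALLO against 131 and 13 in SYN. Germinal centre genes were at 2.08 (0.979 to 4.64) with all cells and at 4.18 (1.51 to 14.3) without the 14. With all cells their sums were only 21 UMIs in ALLO against 12 in SYN, with the Basp1 UMIs of a few ALLO cells among them. The S100 and annexin list turned with the cells kept, at 1.20 (1.11 to 1.30) with all and at 0.827 (0.749 to 0.912) without the 14. B1 markers were at 1.09 (0.884 to 1.34) and interferon-induced genes at 1.13 (0.717 to 1.79), so no difference was detectable for these at this depth.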

How the data were processed

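Spleen cell transcripts were read in 1 ALLO and 1 SYN library. The authors deposited raw UMI counts per gene and barcode, made with Cell Ranger 6.0.2 on mm10, per the submitters' processing notes, which also name FastQC. The sources used here do not name the settings or the annotation release. No counts were normalized before deposit.

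Counts were summed over gated and over comparison B cells and expressed as CPM. Ratios have exact conditional Poisson intervals, shares exact Clopper-Pearson intervals and ratios of shares score intervals, all at 95% and for counting error only. This step was checked on simulated data. Shares of cells were repeated after thinning each cell to 1000 UMIs. The members of the gate and the gene lists were chosen with earlier results of these data known. Named genes, leaving out gate, immunoglobulin, mitochondrial, ribosomal and predicted genes, were the 15 highest and 15 lowest against comparison B cells, ranked by the weaker library's interval bound nearest to 1. Likewise 12 and 12 were named between ALLO and SYN and up to 8 and 8 between gated cells with and without repressor transcripts. Variable segments named were the 5 most assigned per library and chain plus known B1 segments.

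Scrublet in scanpy 1.11.5 marked 0 ALLO and 2 SYN cells as doublets at its automatic threshold, 0% and 0.0115%, which is under 0.5% and was taken as not working, so no doublets were removed. A score above 0.2, tried instead, held 4.77% and 2.41% of cells and 3 ALLO and 1 SYN gated B cells. Python 3.11.15, numpy 2.4.6, scipy 1.17.1, pandas 2.3.3 and matplotlib 3.10.9 were used.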

Additional observations from a re-analysis of the deposited data

Results flagged for a closer look

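Igha, the IgA constant gene, lay on opposite sides of comparison B cells in the 2 libraries, which drew attention to it. The ratio of gated over comparison B cells was 0.526 (0.272 to 0.920) in ALLO, at 92.5 against 176 CPM, and 2.29 (1.24 to 3.86) in SYN, at 90.6 against 39.6 CPM. Gated B cells held 12 Igha UMIs in 3 ALLO cells and 14 in 3 SYN cells. Among comparison B cells, 1 ALLO cell held 2248 of 3973 Igha UMIs, 56.6%, and 1 SYN cell 447 of 808, 55.3%. Without that cell the comparison level was 76.4 CPM in ALLO and 17.7 in SYN. Gated B cells without their own top cell, which held 6 of the 12 ALLO and 8 of the 14 SYN UMIs, were at 48.8 CPM in ALLO and 39.9 in SYN. The difference between the libraries was not tested.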

How the results depend on the processing

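The share of gated B cells kept an ALLO over SYN ratio with an interval that spanned 1 under all 10 alternatives, between 0.488 with a gate sum of at least 5 and 1.16 with the gate applied to thinned counts. The switched share stayed above that of comparison B cells under 12 of 13 alternatives, at ratios of 11.1 to 31.8. It turned to 0 with a gate sum of at least 5, over 14 assigned cells, with unassigned cells not counted. The ratio of switched shares of ALLO over SYN was 0 with isotypes at 5 UMIs and 3 times the next. The 856 genes higher than in comparison B cells became 530 with comparison cells held to the same limits and 105 with 5 expected UMIs. The 1846 lower became 950 and 225 under those settings, 3481 with a gate sum of at least 5, 3073 with S100a6 left out and 3022 with thinned counts. The 287 genes higher in ALLO became 119 with a gate sum of at least 5, 170 with S100a6 left out, 171 without any other-lineage UMI, 153 with thinned counts, 54 with 50 UMIs and 181 without dividing cells. The 359 lower became 163, 179, 180, 141 and 59 under the first 5 of these. The settings leave between 18 and 56 gated B cells, and the cause of each shift was not tested. The limits of Scrublet scores above 0.2, of 3 other-lineage or dividing UMIs and of 5 expected UMIs were chosen after seeing the data. No paired analysis was possible because each group holds 1 library.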
